A study of Mus musculus with 15 samples.

Results

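The genes described here are 9 that carry ions, bicarbonate and water across the pancreatic duct epithelium, taken by symbol: Cftr, Slc4a4, Slc4a2, Slc26a3, Slc26a6, Slc12a2, Car2, Aqp1 and Aqp5. They are 9 of 34554 genes and added sequences in the table, of which 16462 had enough counts to be tested, and all 9 were among the tested. RNA was sequenced from organoids of normal mouse pancreatic duct, in which doxycycline switches on CA19-9, a glycan that mice do not normally make. The inducible group was 3 lines (A217, A220 and A225) with every allele that CA19-9 needs. The genetic negative group was 2 lines (A218 and A223) that lack 1 of those alleles, and the labels do not say which. Each line gave 1 library without doxycycline (0 h) and 1 each after 4 h and 24 h at 1 µg/ml, 15 libraries in all. All libraries shared growth-factor-reduced Matrigel and a medium with A 83-01, EGF, FGF-10, gastrin, Noggin, N-acetylcysteine, nicotinamide, R-Spondin 1 and B27. The medium was renewed 24 h before harvest in every group, and all organoids were harvested together. How many animals gave rise to the lines is not stated, so no p-value here reaches beyond these lines. On group means a p-value is set against the spread between lines. Where the level of each line is fitted, it is set against how much the changes differ between lines.

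The duct lines the outlet of the exocrine pancreas and secretes a bicarbonate-rich fluid that washes out and neutralises the acinar juice. Carbonic anhydrase makes bicarbonate in the cell, a basolateral sodium-bicarbonate cotransporter brings in more, and a sodium-potassium-chloride cotransporter loads chloride. Anion exchangers of the SLC26 family and the cAMP-activated channel CFTR then move bicarbonate and chloride into the lumen, and water follows through aquaporins.

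Sequences are shown for the members on which the results below turn: the alternative starts of Slc4a4, whose protein variants are named after pancreas and kidney, and the pore motifs of both aquaporins, whose levels moved apart at 24 h. All are coding sequence of GENCODE M21 transcripts on GRCm38, plus strand, 5′ to 3′. Slc4a4 encodes the sodium-bicarbonate cotransporter NBCe1. Its first 60 coding bases are given for transcript Slc4a4-207, the most abundant with an upstream start (chr5:88934750-88934809), and for Slc4a4-201, the most abundant with an internal start (chr5:89028172-89028231), with the start codon in capitals.
Slc4a4-207: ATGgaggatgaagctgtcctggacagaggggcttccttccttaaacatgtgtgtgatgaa
Slc4a4-201: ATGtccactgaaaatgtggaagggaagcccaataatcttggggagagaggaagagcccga
Each aquaporin has 2 NPA boxes, the asparagine-proline-alanine motifs that meet in the middle of the water pore. Their codons are in capitals within 45 coding bases of Aqp1-201 (chr6:55336698-55336742 and chr6:55345819-55345863) and of Aqp5-202 (chr15:99591458-99591502 and chr15:99593252-99593296).
Aqp1 first box: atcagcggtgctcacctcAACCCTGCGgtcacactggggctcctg
Aqp1 second box: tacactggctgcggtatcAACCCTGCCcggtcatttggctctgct
Aqp5 first box: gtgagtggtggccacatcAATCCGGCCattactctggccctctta
Aqp5 second box: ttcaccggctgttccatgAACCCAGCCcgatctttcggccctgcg

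Library totals were 47915632 to 59411540 estimated counts. Counts on the added human transcripts were 86 to 179 in the inducible libraries at 0 h and 36682 to 50288 at 4 h, against 37 to 102 in all negative libraries. The tetracycline transactivator rtTA3 was counted 3989 to 9383 times in all 15 libraries, so the negative lines carried it too. Levels are in TPM, a transcript's share of all transcripts, corrected for its length. The 11 duct markers summed to 11501 to 14014 TPM at 0 h, 10817 to 13193 at 4 h and 15016 to 17868 at 24 h. The keratins Krt18 (mean 4492 TPM), Krt8 (3961) and Krt19 (1978) weigh most in this sum. Epcam (332) and Sox9 (4.08) add little to it. The 11 acinar markers summed to 2.24 to 3.35 TPM in all libraries, with Cpa1 and Ptf1a at 0 throughout. Ins1, Ins2, Gcg and Ppy were at 0 throughout among 8 endocrine markers, whose sum of 12.5 to 20.8 TPM was nearly all Pdx1 (mean 17.0). The 8 mesenchymal markers reached at most 2.51 TPM in sum, 6 immune markers 3.34 (Adgre1 at 0) and 5 endothelial markers 5.04 (Emcn at 0).

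The most abundant members were the cytosolic bicarbonate-forming enzyme and the water channels, and the least abundant were the apical anion channel and the exchanger Slc26a3. Because TPM is scaled to length, levels can be set between genes. Over the 15 libraries the mean was 401 TPM for Car2, carbonic anhydrase II, 258 for Aqp5 and 139 for Aqp1. The anion exchanger AE2, Slc4a2, followed at 54.8 TPM, and the chloride loader NKCC1, Slc12a2, at 39.9. Slc4a4 stood at 8.14 TPM and the apical chloride-bicarbonate exchanger Slc26a6 at 3.38. Cftr and Slc26a3 were at 0.547 and 0.517 TPM, places 13190 and 13271 of the 16462 tested, while Car2 was at place 380.

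Of the 8 pairs of neighbours in this order, 4 were separated in every library and 4 were not. Car2 was above Aqp5 in 14 of 15 libraries, Aqp5 above Aqp1 in 13, Slc4a2 above Slc12a2 in 14 and Cftr above Slc26a3 in 8, and the ranges of each pair overlapped. Short transcript models carry part of the TPM of some genes. With transcripts of at least 1000 bases only, Slc4a2 (37.5 TPM) stood below Slc12a2 (39.9), Slc26a6 was at 1.20 TPM and Slc26a3 at 0.0990, while Cftr was at 0.531.

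**Figure D1:**
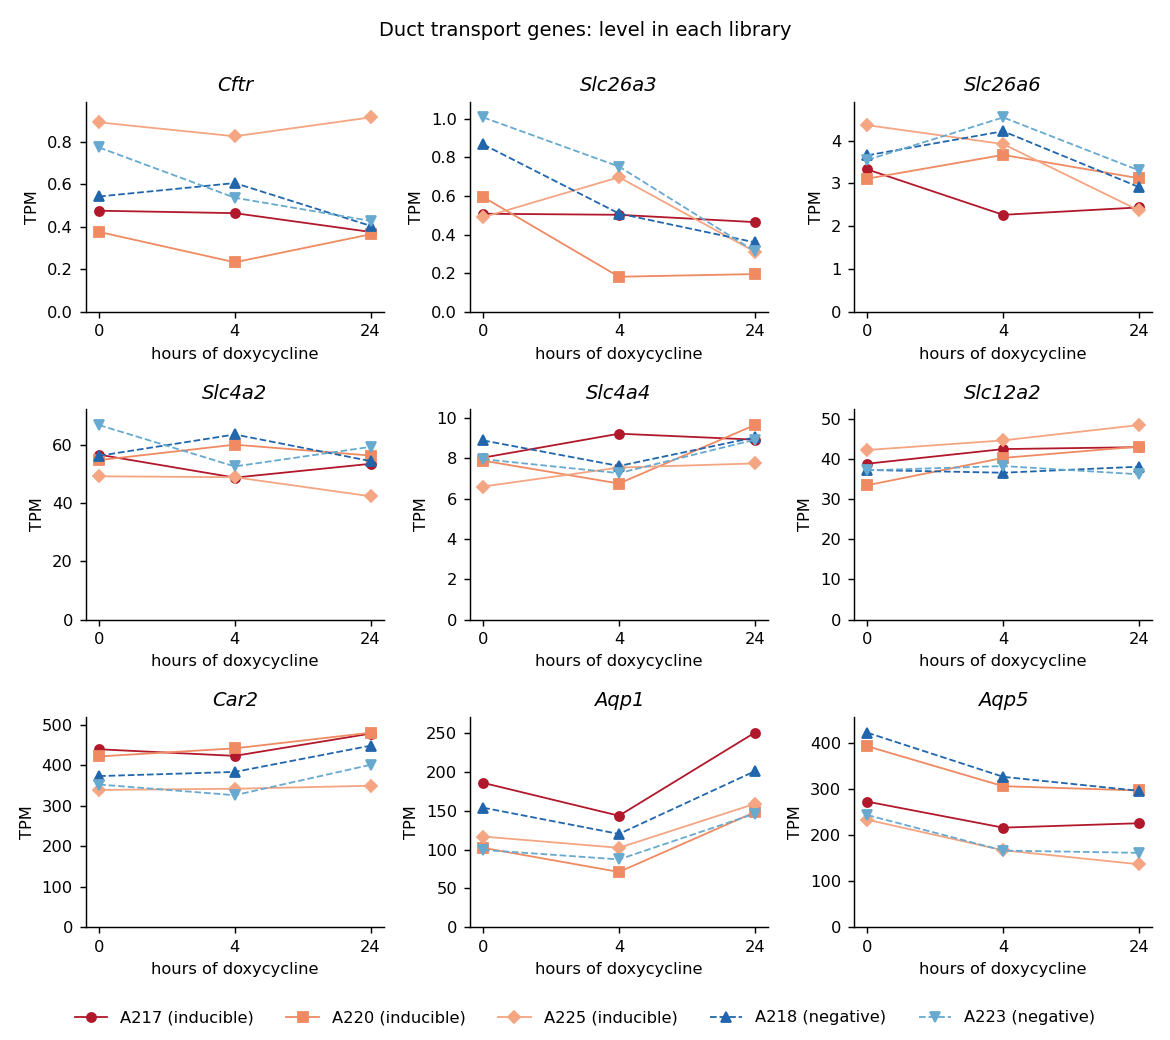
Level of each of the 9 genes in TPM (vertical axes from 0, each with its own range) at 0, 4 and 24 h of doxycycline, drawn evenly spaced; each symbol is 1 library, lines join libraries of 1 organoid line, solid for inducible and dashed for negative lines. Aqp1 dips at 4 h and is highest at 24 h in each of the 5 lines, and Aqp5 is below its 0 h level at both times in each.

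The aquaporins had the same pattern over time in inducible and negative lines, but opposite directions at 24 h. Aqp1 is the constitutive water channel of many fluid-transporting epithelia. In the inducible lines A217, A220 and A225 it stood at 186, 102 and 117 TPM at 0 h, at 144, 71.2 and 102 at 4 h and at 251, 148 and 159 at 24 h. In the negative lines A218 and A223 it was at 154 and 99.6 TPM at 0 h, 120 and 87.4 at 4 h and 201 and 146 at 24 h. Lines differed as much as times, so the ranges of the groups overlapped, but every line was lower at 4 h and higher at 24 h than its own start. As log2 change of counts scaled to library size (CPM) the 24 h step was 0.46, 0.55 and 0.47 in the inducible and 0.45 and 0.61 in the negative lines. The 4 h step ranged from −0.55 to −0.18.

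Aqp5, the apical water channel of secretory glands, was at 273, 393 and 233 TPM in A217, A220 and A225 at 0 h, at 216, 306 and 167 at 4 h and at 226, 297 and 137 at 24 h. The negative lines A218 and A223 had 423 and 244 TPM at 0 h, 327 and 166 at 4 h and 296 and 162 at 24 h. Each line was lower at both times than at 0 h, while A218 and A220 stayed above the other lines throughout. The log2 change was −0.54 to −0.37 at 4 h and −0.74 to −0.24 at 24 h over the 5 lines. Aqp1 and Aqp5 did not share an order of lines. By mean TPM of a line, Aqp1 was highest in A217 (193) and lowest in A220 (107). Aqp5 was highest in A218 (349) and lowest in A225 (179). Over the 15 libraries, 3 of each line, the Pearson r of their log2 CPM was 0.0433. It mixes lines and times and is given as a description.

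Whether the aquaporins passed depended on how the line entered the test. With edgeR's quasi-likelihood test on group means, the change over all 5 lines at 24 h was 0.50 (SE 0.24, adjusted p = 0.166) for Aqp1 and −0.45 (SE 0.28, adjusted p = 0.305) for Aqp5, and neither was called. With the line as a block in the same edgeR test, Aqp1 rose by 0.51 (SE 0.05, adjusted p = 3.19e-06) and Aqp5 fell by 0.47 (SE 0.05, adjusted p = 1.50e-05). At 4 h the blocked edgeR change was −0.35 for Aqp1 (adjusted p = 0.000525) and −0.44 for Aqp5 (adjusted p = 0.000177), against adjusted p = 0.647 and 0.642 on group means. The libraries of 1 line came from the same culture line, which is why the blocked values stand beside the others. With the line as a random effect instead (limma-voom, correlation 0.417 estimated over all features), the 24 h calls stood (adjusted p = 0.00782 for Aqp1 and 0.0326 for Aqp5). The 4 h calls did not (limma-voom adjusted p = 0.137 and 0.116).

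Within each genotype the blocked edgeR test gave the same directions. In inducible lines Aqp1 was at −0.40 at 4 h (adjusted p = 0.00281) and 0.49 at 24 h (adjusted p = 9.65e-05), and Aqp5 at −0.43 (adjusted p = 0.00334) and −0.46 (adjusted p = 0.000372). In negative lines edgeR with the block called Aqp1 at 24 h (0.53, adjusted p = 0.000286) and Aqp5 at 4 h (−0.46, adjusted p = 0.0117) and 24 h (−0.49, adjusted p = 0.000991). Aqp1 at 4 h in negative lines (−0.28, adjusted p = 0.0788) was not called. None of these calls within a genotype stood in limma-voom with the estimated correlation. There the adjusted p was 0.0515 (Aqp1) and 0.129 (Aqp5) in inducible and 0.0871 and 0.191 in negative lines at 24 h, and 0.273 or more at 4 h. The sum of duct markers, weighted to keratins, also was higher at 24 h than at 0 h, with ranges that did not overlap. Over all 5 lines at 24 h, edgeR on group means called 3 of the 11 markers higher (background 18.8%). With the block it called 8 higher and 1 lower (background 36.5%). The part of this sum in the change of Aqp1 was not tested. In RNA from whole organoids, fewer cells of a type and less RNA per cell cannot be told apart.

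**Figure D2:**
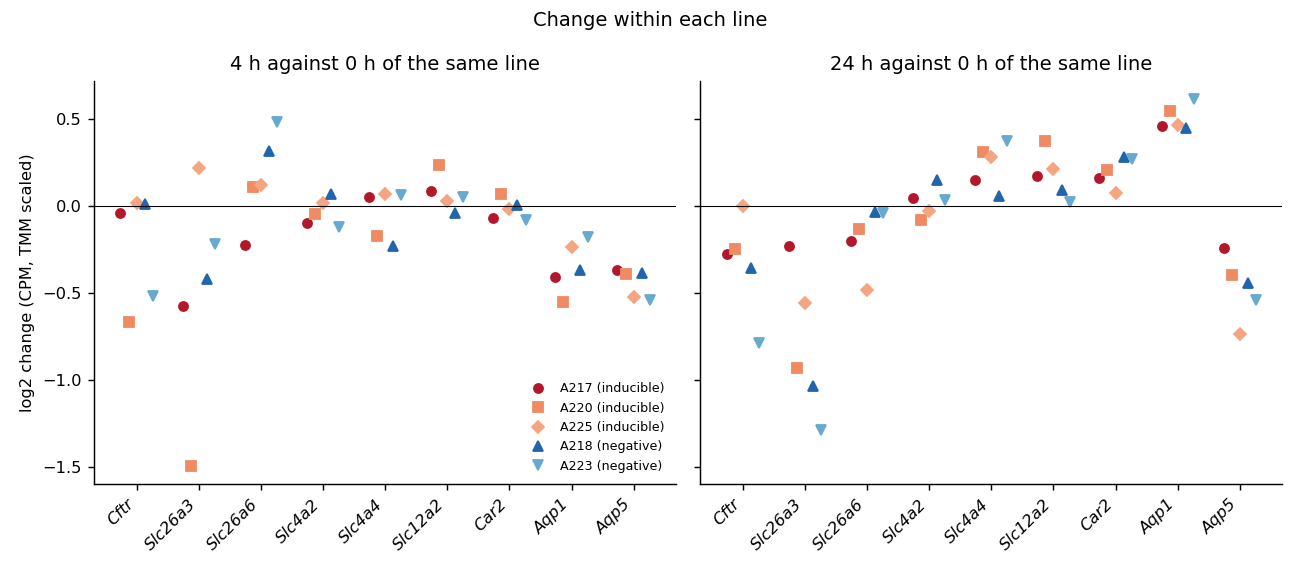
Log2 change of TMM-scaled CPM within each organoid line at 4 h (left) and 24 h (right) against 0 h of that line; each symbol is 1 line, red and orange for inducible and blue for negative. At 24 h the 5 lines lie between 0.45 and 0.61 for Aqp1 and between −0.74 and −0.24 for Aqp5, with both genotypes mixed.

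Of the genes that supply chloride and bicarbonate from the basolateral side and inside the cell, Slc12a2 was called higher at 24 h on group means, Car2 and Slc4a4 with the line as a block, and Slc4a2 in neither fit. Slc12a2 was at 38.8, 33.4 and 42.2 TPM in A217, A220 and A225 at 0 h, at 42.4, 40.2 and 44.6 at 4 h and at 42.9, 43.1 and 48.4 at 24 h. In A218 and A223 it was at 37.2 and 37.1, then 36.5 and 38.2, then 38.0 and 36.1 TPM. The inducible libraries at 24 h were thus above all negative ones, whose mean TPM was 37.2 at 0 h and 37.1 at 24 h, while at 0 h A220 was the lowest of all lines. Slc12a2 was the 1 member called on group means: over all 5 lines at 24 h it rose by 0.17 on the log2 scale (SE 0.06, edgeR adjusted p = 0.0452; 0.18, adjusted p = 0.00160 with the block). The changes in the lines were 0.17, 0.38 and 0.21 in inducible and 0.09 and 0.03 in negative lines. The edgeR call on group means was lost under median-of-ratios scaling (adjusted p = 0.0574), without the filter on low counts (0.0647) and without any 1 of 8 of the 10 libraries compared, with adjusted p up to 0.135. Without A220 at 0 h the change was 0.11 (adjusted p = 0.109). On TPM, A223 went from 37.1 to 36.1, so the direction in that line turned with the scale.

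Car2 catalyses the hydration of carbon dioxide that yields bicarbonate. It was at 440, 422 and 339 TPM in A217, A220 and A225 at 0 h, at 424, 442 and 342 at 4 h and at 479, 481 and 350 at 24 h. The negative lines had 374 and 353 TPM at 0 h, 384 and 326 at 4 h and 449 and 402 at 24 h. A225 was low at all times, each line was highest at 24 h, and the groups overlapped. Over all 5 lines the 24 h change was 0.20 (SE 0.11, adjusted p = 0.242, edgeR on group means; SE 0.03, adjusted p = 0.000164 with the block).

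Slc4a4 brings sodium and bicarbonate in from the blood side. Its level was 8.04, 7.89 and 6.61 TPM in A217, A220 and A225 at 0 h, 9.23, 6.75 and 7.55 at 4 h and 8.93, 9.66 and 7.75 at 24 h. In A218 and A223 it was 8.89 and 7.96, then 7.62 and 7.27, then 9.04 and 8.93 TPM. Each line was above its own start at 24 h, with overlap between the groups. The change over all 5 lines was 0.23 (SE 0.09, adjusted p = 0.0782, edgeR on group means; 0.24, adjusted p = 0.00484 with the block). Slc4a2, which exchanges chloride for bicarbonate at the basolateral side, ranged from 42.3 to 66.7 TPM over all libraries. Its 24 h change was 0.02 (SE 0.06, adjusted p = 0.807 with edgeR), and on scaled counts 3 lines were higher and 2 lower. On TPM A220 alone was higher (54.7 at 0 h, 56.2 at 24 h). The direction in A217, A218, A220 and A223 thus turned with the scale. Slc4a2 overlaps Fastk on the opposite strand (mean 2359 counts), and the sources used here do not say whether counting used strand.

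The luminal exchangers and the channel rested on few counts. Cftr had 48 to 188 counts a library, at 0.475, 0.376 and 0.890 TPM in A217, A220 and A225 at 0 h, 0.464, 0.233 and 0.825 at 4 h and 0.376, 0.365 and 0.914 at 24 h. The negative lines were at 0.542 and 0.773, then 0.605 and 0.536, then 0.404 and 0.428 TPM. A225 was the highest line and A220 the lowest on average. The spread between lines, 2.51-fold from A220 to A225 by their mean log2 CPM, was the widest of the 9 genes. The 24 h change over all lines was −0.32 (SE 0.32, adjusted p = 0.529, edgeR on group means; −0.33, SE 0.14, adjusted p = 0.0710 with the block).

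Slc26a6 had 90 to 163 counts a library. It stood at 3.32, 3.11 and 4.36 TPM in A217, A220 and A225 at 0 h, 2.27, 3.66 and 3.92 at 4 h and 2.44, 3.12 and 2.37 at 24 h. The negative lines had 3.65 and 3.55, then 4.22 and 4.54, then 2.91 and 3.30 TPM. Both negative lines were at their highest at 4 h, as was A220, while A217 and A225 were highest at 0 h. On scaled counts A225 was higher at 4 h than at 0 h (log2 change 0.12), so its place turned with the scale. Its 24 h change was −0.18 (SE 0.13, adjusted p = 0.357; adjusted p = 0.269 with the block, both edgeR).

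Slc26a3, a chloride-bicarbonate exchanger best known from the colon, had 7 to 32 counts a library. It was at 0.508, 0.594 and 0.490 TPM in A217, A220 and A225 at 0 h, 0.502, 0.182 and 0.697 at 4 h and 0.464, 0.196 and 0.312 at 24 h. The negative lines went from 0.866 and 1.01 over 0.509 and 0.752 to 0.360 and 0.314 TPM. Each line was lower at 24 h, and the TPM at 0 h and 24 h did not overlap in either group. On scaled counts the inducible values did overlap (0.419 to 0.569 CPM at 0 h, 0.214 to 0.483 at 24 h). The change over all 5 lines was −0.79 (SE 0.33, adjusted p = 0.115, edgeR on group means; −0.81, SE 0.30, adjusted p = 0.0465 with the block).

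**Figure D3:**
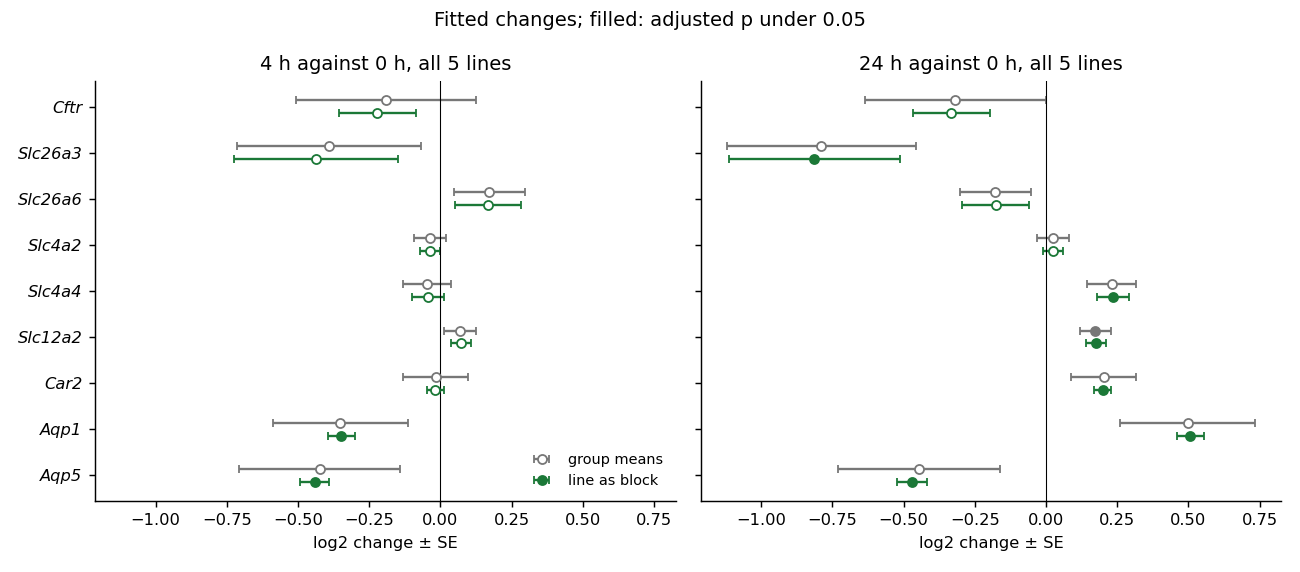
Fitted log2 change with its SE for the 9 genes over all 5 lines at 4 h (left) and 24 h (right) against 0 h; grey is the fit on group means, green the fit with the line as a block, and filled symbols have an adjusted p under 0.05. The point estimates nearly coincide, while the SE of Aqp1 at 24 h is 0.24 on group means and 0.05 with the block.

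The transcripts behind these levels were mostly coding for Slc4a4, while Slc26a3 had hardly any counts on its longest coding transcript. For Slc4a4, transcripts with the upstream start made up 98.1% of the gene's TPM (95.7% to 99.5% over the 15 libraries) and 1910 counts on average. As background, the upstream start gives the variant named pancreatic NBCe1-B and the internal start the renal NBCe1-A. Transcripts with the internal start had 1.87% of the TPM (0.520% to 4.34%) and 12.0 counts. Of these, 11.7 counts were on Slc4a4-201, a 2518-base model that ends at chr5:89042362, short of the gene's end at chr5:89239653. Slc4a4-203, which runs from the internal start to chr5:89234861, had 0 counts. Slc4a4-207, printed above, alone held 77.4% of the TPM and Slc4a4-202 17.5%.

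For Slc26a3, models with a retained intron held 92.9% of the TPM and 91.9% of the counts. The longest coding transcript, Slc26a3-201, had 0.626 counts a library on average and at most 4.39. The gene-level values of Slc26a3 therefore mostly rest on counts outside its coding transcripts. For Slc26a6, 62.5% of the TPM (51.2% to 70.8%) came from Slc26a6-203, a 418-base model at chr9:108912410-108913049. It starts 50266 bases past the common end of the other transcripts, overlapping only the end of Slc26a6-201, and had 16.9% of the counts. The other Slc26a6 transcripts summed to 1.26 TPM and 99.5 counts. Cftr was mostly its main transcript, with 88.8% of the TPM on Cftr-201 (47.0% to 100%).

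Among the remaining members, Aqp1 and Slc12a2 were counted on 1 transcript each. Aqp5-202 held 92.3% of Aqp5 and Car2-201 held 93.7% of Car2. Slc4a2 was spread over Slc4a2-201 (48.5%), the 453-base Slc4a2-213 (19.4%) and Slc4a2-203 (17.9%).

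**Figure D4:**
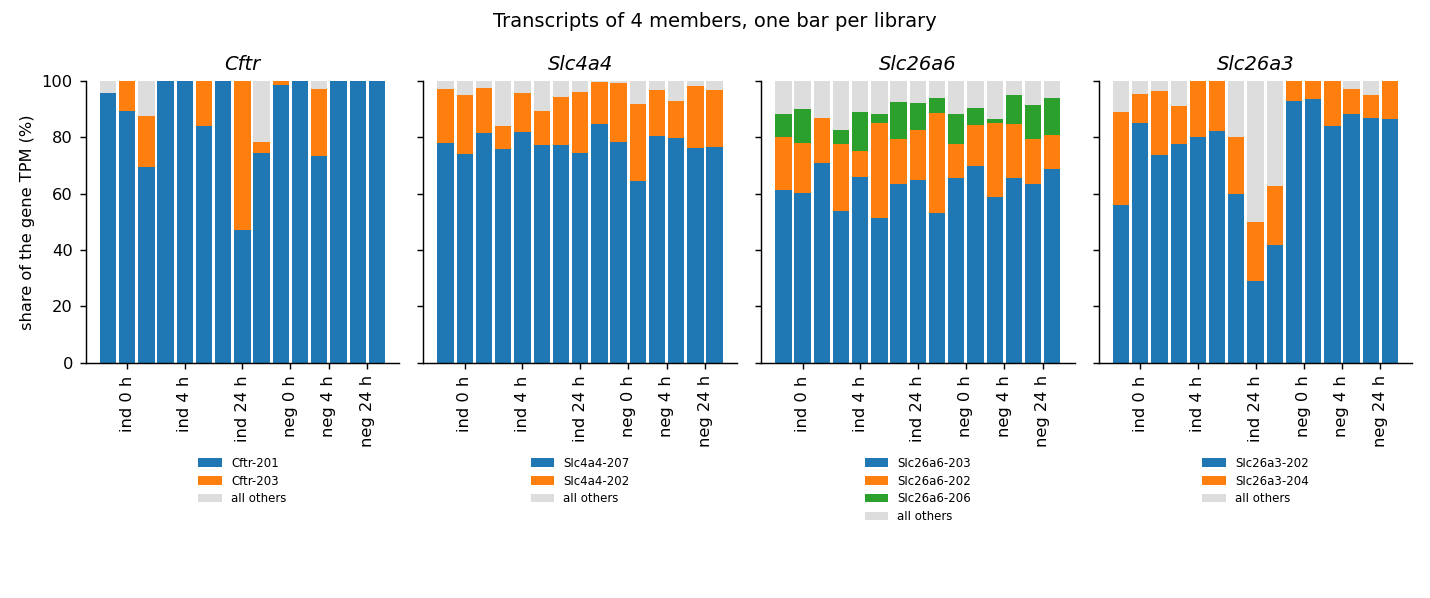
Share of a gene's TPM (%) taken by its transcripts for Cftr, Slc4a4, Slc26a6 and Slc26a3; each bar is 1 library, in the order inducible (ind) then negative (neg) at 0, 4 and 24 h, and grey is all other transcripts. Slc4a4-207 is the largest part in every bar of Slc4a4, and the short Slc26a6-203 is the largest in every bar of Slc26a6.

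Counted over the 9 genes, calls on group means were few and stood against a background that grew with time. At 24 h over all 5 lines edgeR called 1 of 9 members, while 18.8% of all tested features were called; with the block 6 of 9 were called (4 higher, 2 lower) against a background of 36.5%. The members' median change at 24 h was 0.02, and that of all features 0.00. DESeq2 called 2 of 9, Slc4a4 and Slc12a2, against 3660 of 25016 features. At 4 h over all lines edgeR called 0 of 9 (background 0.917%), with 0 at an unadjusted p under 0.05 and 0 by DESeq2. The block called 2, Aqp1 and Aqp5 (background 8.87%).

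In inducible lines edgeR called 0 of 9 at 4 h (background 0.298%; 0 at an unadjusted p under 0.05, 0 by DESeq2, 2 with the block against 3.05%). At 24 h it called 0 of 9 there (background 4.93%), with Slc4a4 and Slc12a2 at an unadjusted p under 0.05. DESeq2 called 1, Slc12a2, against 1770 of 25016 features. Limma-voom with the estimated correlation called 2, again Slc4a4 and Slc12a2, against 3399 of 16462 features. With the block edgeR called 5 of 9 in inducible lines at 24 h, against 24.2% of features: Aqp1, Aqp5, Slc12a2 (0.25, adjusted p = 0.00154), Car2 (0.15, adjusted p = 0.0128) and Slc4a4 (0.25, adjusted p = 0.0230). In negative lines edgeR called 0 of 9 at 4 h (background 0.121%; 0 at an unadjusted p under 0.05, 0 by DESeq2), and 1 with the block against 2.04%. At 24 h it called 0 of 9 in negative lines (background 3.8%), with 1 at an unadjusted p under 0.05, Slc26a3. DESeq2 called 0 there, against 1470 of 25016 features. With the block edgeR called 3 there, Aqp1, Aqp5 and Car2 (0.28, adjusted p = 0.00110), against 22.5%. Limma-voom called 0, against 3135 of 16462 features.

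The response to doxycycline did not differ detectably between lines with and without the CA19-9 alleles for any of the 9 genes. The difference of responses, inducible minus negative, was called by edgeR for 0 of 9 at 4 h (background 0.0121%) and 0 of 9 at 24 h (background 0.0121%). No member had an unadjusted p under 0.05 at either time, and DESeq2 called 0. With the block 0 of 9 were called at 4 h (background 0.0182%) and at 24 h (background 0.0243%). Slc12a2 at 24 h had the smallest p of the members with the block (difference 0.19, unadjusted p = 0.0187, adjusted p = 0.55 with edgeR). On group means its interval was −0.05 to 0.43 on the log2 scale.

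The 95% intervals that follow show what the fit on group means, which leaves out the line, could and could not resolve. For Aqp1 at 24 h the difference was −0.03, with a 95% interval of −1.08 to 1.02, and for Aqp5 0.05 (−1.20 to 1.31). Cftr (0.46, −0.94 to 1.86) and Slc26a3 (0.67, −0.80 to 2.13) had wider ones. Slc4a2 (−0.12, −0.36 to 0.13) and Slc4a4 (0.04, −0.34 to 0.42) had narrower ones. With the line as a block the difference at 24 h was −0.04 (SE 0.0949) for Aqp1 and 0.04 (SE 0.106) for Aqp5. The blocked SE was 0.0733 for Slc4a2 and 0.115 for Slc4a4, so Slc4a4 was not resolved better than the aquaporins in that fit. Before doxycycline, inducible and negative lines differed by −0.28 for Cftr to 0.17 for Car2. EdgeR called 0 of 9 there (background 0.0%), with 0 at an unadjusted p under 0.05 and 0 by DESeq2.

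The other genes of duct secretion were described from 8 lists of 71 genes, of which 52 were tested. At 24 h over all 5 lines edgeR called 7 of 52 higher and 4 lower, against the 18.8% background. With the block it called 15 higher and 8 lower, against 36.5%. Among kinases and scaffolds 4 of 9 were higher. Sgk1, a kinase that raises epithelial sodium transport, ranged from 8.15 to 14.6 TPM at 0 h and from 20.0 to 33.6 at 24 h in the 3 inducible lines. The 2 negative lines ranged from 8.59 to 9.32 TPM at 0 h and from 24.0 to 25.7 at 24 h, with no overlap between the times in either group. It rose by 1.34 on the log2 scale (SE 0.16, edgeR adjusted p = 0.000298). Wnk1, a chloride-sensing kinase, rose by 0.31, the membrane linker Ezr by 0.30 and its partner Slc9a3r1, a scaffold that binds CFTR, by 0.27.

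Of 8 other apical anion channels and exchangers 2 were higher and 0 lower. Ano1, the calcium-activated chloride channel, had a mean of 401 TPM, close to that of Car2, and rose by 0.26 (SE 0.08, edgeR adjusted p = 0.0367), and Ano6, a phospholipid scramblase, rose by 0.22. Slc26a9, a chloride channel (−0.74), and Clcn2 were called lower with the block alone. Of 6 potassium channel genes 1 was higher, Kcnk5 (0.41), and 2 were lower: Kcnn4, the calcium-activated channel (−0.61, edgeR adjusted p = 0.00445), and Kcne3, a subunit that opens KCNQ1 (−0.46, edgeR adjusted p = 0.0289). Kcnn4 ranged from 67.9 to 77.6 TPM at 0 h and from 40.5 to 53.2 at 24 h in inducible lines, without overlap.

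Of 5 other aquaporins 2 were lower, Aqp11 of internal membranes (−0.28, mean 7.25 TPM) and the glycerol channel Aqp7 (−1.06, mean 0.284 TPM). None of 6 other carbonic anhydrases (largest Car9, 128 TPM), 10 other acid-base and cation-chloride carriers and sodium pump genes, 5 genes of secretagogue receptors and cAMP (largest F2rl1, 89.7 TPM) or 3 of the epithelial sodium channel and its regulators (largest Nedd4l, 72.2 TPM) was called on group means. The secretin receptor Sctr had 11 counts in all 15 libraries together.

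By genotype, edgeR called 5 of 52 higher and 1 lower in inducible lines at 24 h (background 4.93%), and 4 higher and 0 lower in negative lines (background 3.8%). Sgk1, Slc9a3r1, Kcnk5 and Ezr were called in both. Wnk1 (0.38 in inducible, 0.19 in negative lines) and Kcnn4 (−0.61 in each) were called in inducible lines alone. No gene of these lists was called for the difference between genotypes in either fit. At 4 h 0 of 52 were called on group means in each genotype or over all lines, and with the block 0 were higher and 9 lower over all lines (background 8.87%).

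**Figure D5:**
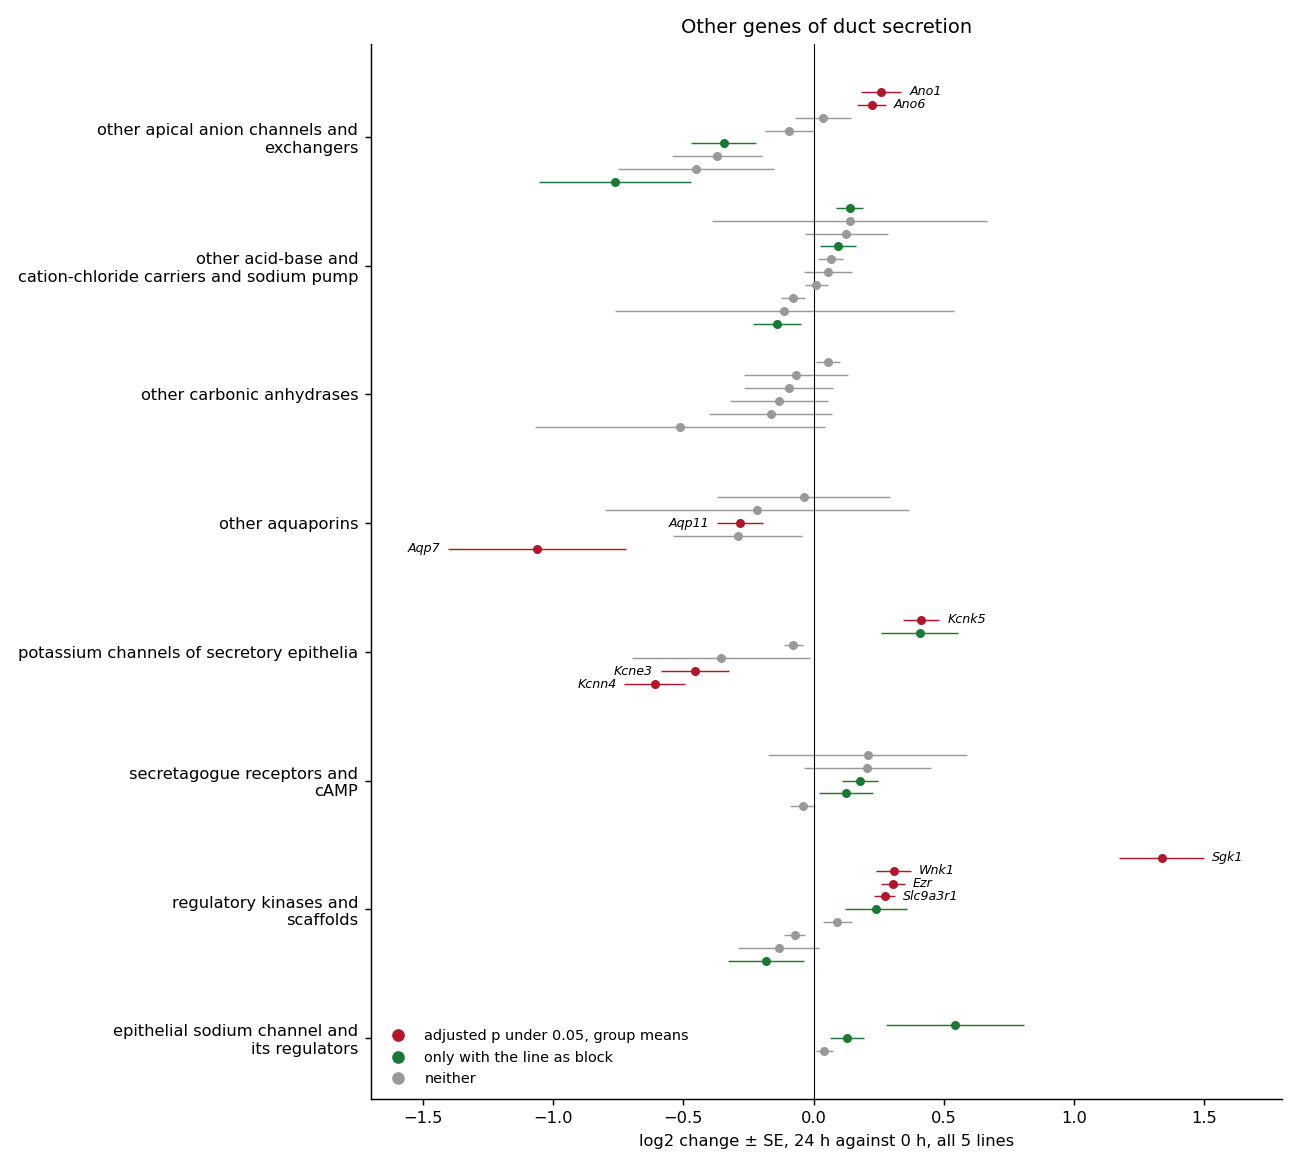
Log2 change with its SE at 24 h against 0 h over all 5 lines for the 52 tested genes of 8 lists; red genes are called on group means (named), green only with the line as a block, grey by neither. Sgk1 has the largest increase (1.34) and Aqp7 the largest decrease (−1.06) of the genes called.

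Genes whose level was most like a member's over the 15 libraries are named as a description. They share lines, times and depth with it, and r is Pearson's over log2 CPM among 12219 candidates. Cftr was most like Fzd4 (0.94), Ppp1r3d (0.91) and Smo (0.891). Aqp5 was most like Grb10 (0.956), Mboat7 (0.927) and Id1 (0.907). Aqp1 was most like Zfp740 (0.915), Ugt1a1 (0.911) and Ddt (0.896).

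Car2 had Acaa2 (0.947), Ogfod2 (0.944) and Gpt (0.935) as its nearest genes. Slc12a2 had Dpp8 (0.932), Dnaja1 (0.926) and Zmym2 (0.924), and Slc4a2 had Ube3b (0.952) and Pigt (0.931). Slc4a4 had Neu2 (0.893), Nedd9 (0.886) and Hacd4 (0.882), and Slc26a6 had Ppp1r3b (0.849), Dsel (0.834) and Plekha2 (0.831). Slc26a3, under 1 CPM on average, was left out. Among the other 8 members the highest r was 0.822, between Slc4a4 and Aqp1, and the lowest −0.798, between Cftr and Car2.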

How the data were processed

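Bulk RNA was sequenced from 15 organoid libraries, per the labels' protocols after ribosomal depletion with paired reads. Per the file headers, the authors deposited estimated counts, TPM and transcript lengths (an other unit, in bases) per transcript. The submitters' processing notes name kallisto 0.43.1, DESeq2 1.18.1, DESeq and GRCm38. The annotation release and strand setting are not given in the sources used here. Of 109304 transcripts, 1295 (0.556% to 0.593% of counts) had no match in GENCODE M21 and 22 were added sequences.

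Estimated counts were summed per gene and rounded, giving 34554 features. Those passing edgeR's filterByExpr (16462) were fitted with edgeR 4.0.16 in R 4.3.3: TMM scaling, 6 group means over all 15 libraries, quasi-likelihood F test, Benjamini-Hochberg adjustment over all tested features, threshold 0.05. The method was tested on simulated data with planted changes larger than most found in the members. That test does not cover changes of their size. TPM, as deposited, was summed per gene for levels. Groups came from the labels and libraries of 1 line share its name. Their deviations from the group means correlated at 0.322 to 0.434 (inducible) and 0.191 to 0.243 (negative), so the line pairs libraries, and the fit with the line as block stands beside results that it changes. Lines are nested in genotype, so the 0 h comparison has no such fit. Libraries of a group differed beyond counting noise (chi-square per degree of freedom 15.3 to 44.3). DESeq2 1.42.0 and limma 3.58.1 were alternatives, with other scalings, filters and left-out libraries. The 25016 features given for DESeq2 were all with any count, including any that its own filter left without an adjusted p. Its shares are therefore not like those of edgeR. Depth limits precision for Cftr, Slc26a3 and Slc26a6.

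The members, gene lists and rules were chosen with earlier results of these data known. Named were all members; of the other lists, genes called on group means and the gene with the largest mean TPM per list; the 3 genes most correlated with each member with at least 1 CPM; and transcripts with at least 10% of a gene's TPM. Slc26a9, Clcn2, Sctr and some smaller transcripts were added after their values were seen. Some genes that these rules name are not reported here.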

Additional observations from a re-analysis of the deposited data

How the results depend on the processing

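Called members are given here with the share of all features called in brackets. EdgeR with lines as a replicate block gave 2 in inducible lines at 4 h (3.05%) and 5 at 24 h (24.2%). In negative lines it gave 1 at 4 h (2.04%) and 3 at 24 h (22.5%). Over all lines it gave 2 at 4 h (8.87%) and 6 at 24 h (36.5%). Limma-voom with lines as a random effect (correlation 0.417) gave 2 in inducible lines at 24 h, Slc4a4 and Slc12a2, not the aquaporins (3399 of 16462 features called). Over all lines at 24 h it gave 6 (5621 called). It gave 0 at 4 h in either genotype or over all lines, and 0 in negative lines at 24 h (3135 called). DESeq2 gave 1 in inducible lines (1770 of 25016 features called) and 2 over all lines (3660 called) at 24 h. The single call over all lines at 24 h, Slc12a2, fell to 0 calls under median-of-ratios scaling, no filter, a filter of 1 CPM in 3 libraries, a length offset and a fit of only the groups compared, with adjusted p between 0.0548 and 0.101. Leaving out 1 library gave 0 to 1 calls, and Slc12a2 kept its call only without A217 at 24 h (adjusted p = 0.0472) or A225 at 0 h (0.0278); its value was lowest (0.11) without A220 at 0 h. Slc4a4 over all lines at 24 h passed only without A218 at 0 h (0.30, adjusted p = 0.0451). The block changed no call of a difference between genotypes. The causes were not tested.

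Of 625 member values under settings that kept every library, 580 kept direction and side of the threshold, 27 gained the call, 5 lost it and 13 turned sign. None of those 13 was called. With the length offset the values were 0.0322 for Slc4a4 and −0.17 for Slc26a6 (inducible 4 h), −0.00142 for Slc12a2 (negative 4 h), −0.0596 and −0.0549 for Slc4a2 (negative and all lines, 24 h), −0.00820, 0.0377 and 0.35 for the genotype difference of Cftr, Slc4a2 and Slc26a3 at 4 h, and 0.00791 for that of Slc4a2 at 24 h. Slc12a2 in negative lines at 4 h was −0.00482 with DESeq2, −0.00453 with median-of-ratios and −0.00246 with no filter, and Car2 in inducible lines at 4 h was 0.000642 with the 1 CPM filter.

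Leaving out 1 library at a time turned the sign of 33 uncalled results. In inducible lines at 4 h the ranges were −0.61 to 0.20 (Cftr), −0.12 to 0.0548 (Slc4a4), −0.11 to 0.0240 (Slc4a2), −0.0970 to 0.16 (Slc26a6) and −0.12 to 0.12 (Car2), and at 24 h −0.60 to 0.19 (Cftr) and −0.0812 to 0.0361 (Slc4a2). In negative lines at 4 h they were −0.26 to 0.0815 (Slc4a4), −0.0868 to 0.0222 (Slc4a2), −0.0382 to 0.0387 (Slc12a2), −0.14 to 0.0544 (Car2), −0.58 to 0.0516 (Aqp1) and −0.998 to 0.00858 (Aqp5). Over all lines they were −0.48 to 0.00579 (Cftr), −0.12 to 0.0243 (Slc4a4) and −0.0886 to 0.0527 (Car2) at 4 h, and −0.0176 to 0.0528 (Slc4a2) at 24 h. For the genotype difference at 4 h they were −0.32 to 0.49 (Cftr), −0.0955 to 0.25 (Slc4a4), −0.0746 to 0.0616 (Slc4a2), −0.54 to 0.24 (Slc26a3), −0.0720 to 0.16 (Car2), −0.44 to 0.22 (Aqp1) and −0.42 to 0.58 (Aqp5). At 24 h they were −0.14 to 0.20 (Slc4a4), −0.23 to 0.0299 (Car2), −0.38 to 0.29 (Aqp1) and −0.39 to 0.57 (Aqp5). At 0 h they were −0.23 to 0.11 (Slc4a4), −0.12 to 0.000877 (Slc4a2), −0.00166 to 0.15 (Slc12a2), −0.19 to 0.47 (Aqp1) and −0.46 to 0.33 (Aqp5).

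Levels by CPM per kilobase had the same order as TPM. The effective length was itself weighted by TPM, which fixes that order within a library, so it is no separate check. The level from transcripts of at least 1000 bases was an alternative chosen after seeing the data. With 7 to 32 counts for Slc26a3 and 2 negative lines, changes of a size found in Aqp1 could not be resolved for it.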
